A study of Mus musculus with 18 samples.

Results

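The genes described here are 10 of the 19259 that could be named on the arrays from RefSeq: Dppa2, Dppa3, Dppa4, Dppa5a, Utf1, Fut4, Lin28a, Fbxo15, Gdf3 and Alpl. They are the Dppa genes and other markers of stem cells, and they were taken by symbol: all probes whose accession belongs to 1 of these symbols in RefSeq are covered. This gave 11 probes, 2 of them for Dppa4. Levels were measured in unirradiated mouse embryonic stem (ES) cells, in differentiated (ED) cells made from them, and in both after ionizing radiation (IR). There were 6 groups of 3 samples, with 1 one-colour array for each sample.

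The Dppa genes were named for their expression in the pluripotent cells of the early embryo, and the other genes are used in many laboratories to recognise stem cells in culture. Their products do different work: some bind chromatin, some bind RNA, Gdf3 is secreted as a ligand, and others act at the cell surface or build its marks. Most are switched off as cells leave the pluripotent state.

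ES cells came from blastocysts and were kept at early passage on gelatin with LIF and without feeder cells; the ES group was not irradiated. ED cells were isogenic with them and had grown without LIF for 1 week, or until Oct4, Sox2, Nanog and SSEA1 were lost; the ED group was not irradiated. ESRE cells were ES cells taken 15 min after 10 Gy, and ESRL cells were ES cells taken 4 h after 10 Gy. EDRE and EDRL cells were ED cells at the same dose and the same times. The methods name the ES cells as wild-type, and no genetic change was stated for any group. The differentiation was undirected, so that the ED cells are not of a named type, and both kinds of cell were grown in a dish. SSEA1 can be made by Fut4 and by Fut9, and loss of SSEA1 was part of how the ED cells were defined. Fewer cells that express a gene and less RNA per cell cannot be told apart in these samples.

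A level is the log2 signal of a probe relative to its array's 75th percentile, so that 0 is the signal of a fairly bright probe. Levels of different probes are not compared as amounts of RNA, because probes differ in how well they bind. A gene was called where the limma test gave an adjusted p under 0.05 and a log2 difference over 1 in size. Outlier spots, as marked by the scanner software, are given with the values but were left out of the test. Their places are named beside the values. The p-values measure only the spread between these samples, because the labels do not say whether the 3 samples of a group were separate cultures. With 3 arrays in a group, the number of arrays limits the precision.

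EDRE replicates 2 and 3 and ESRL replicate 1 stood apart from the other arrays. Their 75th percentiles were 875, 1155 and 1952, against 2806 to 4268 on the other 15 arrays. Outliers made up 24.4% and 23.8% of the spots on the first 2 of them and 3.33% to 11.1% elsewhere. Replicates correlated across probes (which are not independent) at 0.930 to 0.974 in EDRE and 0.956 to 0.976 in ESRL, and at 0.976 or more in the other groups. By scan times the arrays fell into 6 sets, called slides here. That they are slides is an inference: the headers give array positions 1 to 4, while the methods name slides with 1 array. No slide held an irradiated group beside its own control. Differences between those groups and differences between these sets therefore cannot be told apart. The only slide with both cell types held the 3 ED arrays and ESRE replicate 3.

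All 10 genes were lower in ED cells than in ES cells, whether or not the cells had been irradiated. In each of the 3 comparisons of cell type, every ED array lay below every ES array for each gene. In ES cells all 10 genes were well above background on all 3 arrays. In ED cells Dppa3 and Alpl were not well above background on any array, and the other 8 genes still gave a measurable signal on all 3. The measured size of the difference ranged widely, from 4.57-fold for Fut4 to 9051-fold for Dppa5a.

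In unirradiated cells 10 of 10 genes were called lower in ED, where 26.6% of all 28636 probes tested were. At 15 min after IR 10 of 10 were called lower (27.7% of all probes), and at 4 h 10 of 10 (24.9% of all probes). At 15 min the calls of 7 genes rest on EDRE arrays at background in part or whole; where all arrays of both groups had to be well above background, 3 genes were tested and 3 called. The same rule left 8 genes in unirradiated cells, all 8 called, and 8 at 4 h, all 8 called, without Dppa3 and Alpl. The shares of all probes given here belong to the main filter and not to this rule. The ED arrays lay apart from the ES arrays for 10 of 10 genes in unirradiated cells, as they did for 72% of all probes. The same held for 10 of 10 genes at 15 min (60.5% of all probes) and for 10 of 10 at 4 h (68.7% of all probes). The median difference of the 10 genes was −7.27 in unirradiated cells, against −0.19 for all probes tested. At 15 min it was −7.64 against −0.17, and at 4 h −7.94 against 0.06. With genes set at their bounds where ED arrays were not well above background, as explained under Dppa3, the 3 medians were −6.20, −6.48 and −7.17. This touched 2 genes in unirradiated cells, 7 at 15 min and 2 at 4 h. Scaling the arrays to their medians instead moved the median of all probes by 0.64 in unirradiated cells, by 0.77 at 15 min and by 0.48 at 4 h. With that scaling 18.5% of all probes were called lower in unirradiated ED cells and 26.8% higher, where the main scaling gave 26.6% and 15.1%. At 15 min it gave 18.1% lower and 36.8% higher in place of 27.7% and 18.8%, and at 4 h 19% and 36.1% in place of 24.9% and 24.1%. It moved that median by 0.31 for ESRL against ES, by 0.25 for EDRE against ED, by 0.15 for EDRL against ED and by 0.23 for ESRL against ESRE. The 3 comparisons of cell type share no arrays.

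With slide as a random block, 9 of the 10 genes were called in unirradiated cells and 10 of 10 at each time after IR. The shares of all probes given above are those of the main fit and not of this one or the other fits of this paragraph. The call that ended was that of Dppa2 (−4.11, SE 1.42, adjusted p = 0.0544). With EDRE replicate 1 as the only EDRE array, 10 of 10 genes were also lower at 15 min. That fit was added after the data were seen, and its spread comes wholly from other groups. At 4 h 9 of the 9 genes that could be fitted were called without ESRL replicate 1. On the slide with both cell types, each of the 10 genes was lower on all 3 ED arrays than on the ESRE array. A fit with slide as a fixed block gave lower levels in ED than in ESRE for the 9 genes it could test. The smallest difference was −1.98, for Fut4. The fit rests on 1 ESRE array, whose spread is taken from the other groups. Alpl could not be tested there, because its spot on that ESRE array was an outlier and its ED arrays were at background.

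**Figure D1:**
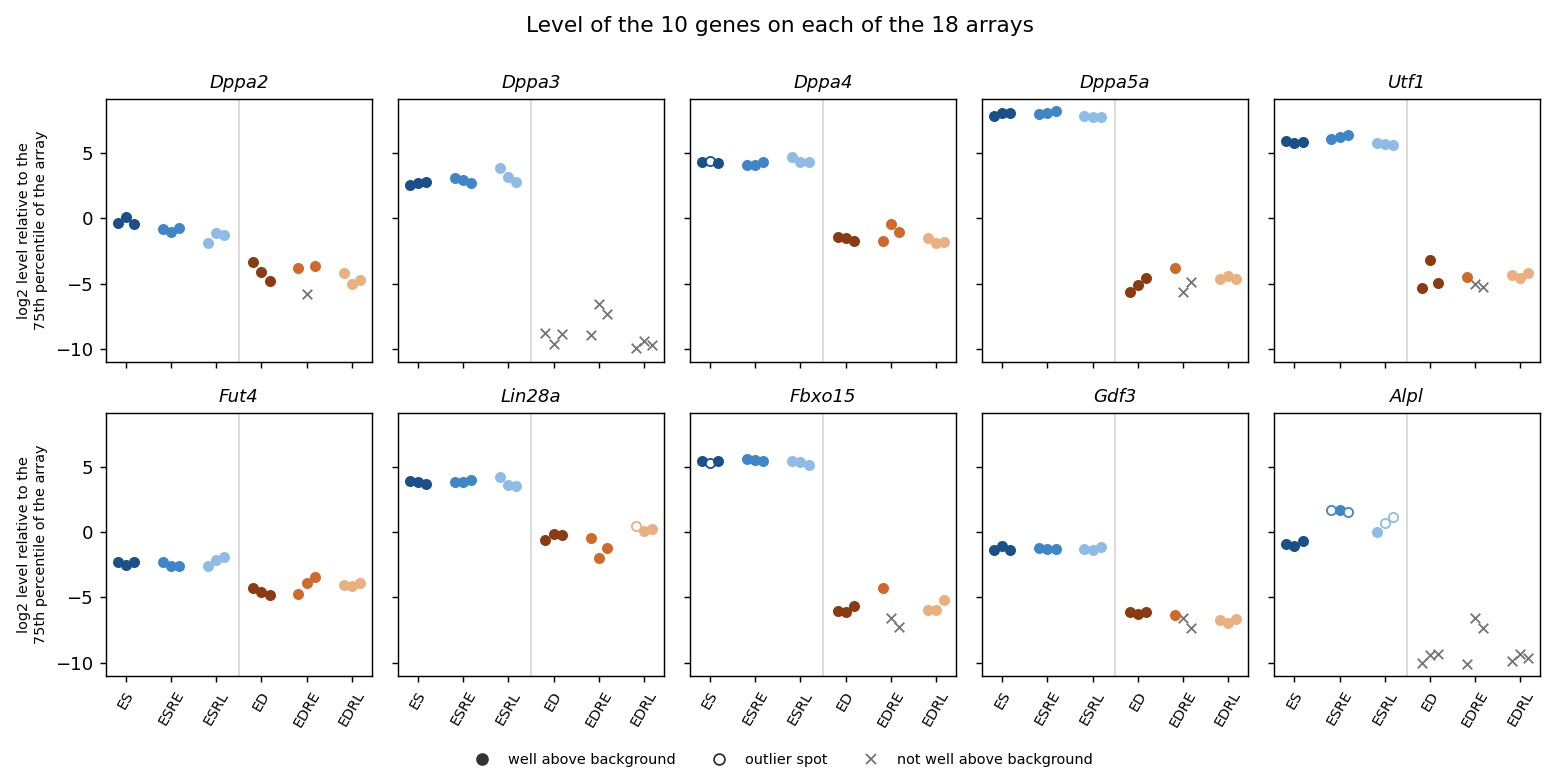
Level of each of the 10 genes (log2 relative to the array's 75th percentile, vertical axis) on each array of the 6 groups; each point is 1 array, with outlier spots and signals not well above background marked. The ED, EDRE and EDRL arrays lie below the ES, ESRE and ESRL arrays for each gene, with Dppa5a at 7.88 to 8.09 in ES cells and −5.66 to −4.61 in ED cells.

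Of the chromatin proteins, Dppa2 and Dppa4 carry a SAP domain and act together on the same genes. Dppa2 read −0.35, 0.11 and −0.42 in ES cells, −0.81, −1.06 and −0.76 in ESRE and −1.91, −1.16 and −1.25 in ESRL. It read −3.33, −4.11 and −4.80 in ED cells, −3.81, −5.80 and −3.69 in EDRE and −4.16, −5.02 and −4.76 in EDRL. All 9 ED arrays lay below all 9 ES arrays, with the widest scatter among the ED arrays; on EDRE replicate 2 the probe was not well above background. The difference was −3.86 in unirradiated cells (14.5-fold lower, adjusted p = 7.7e-06). At 4 h it was −3.21 (9.26-fold lower, adjusted p = 3.81e-05). At 15 min, with 2 of 3 EDRE arrays well above background, Dppa2 was at least 8.26-fold lower (adjusted p = 1.46e-05). On the shared slide the difference between ED and ESRE replicate 3 was −3.32. The fitted value at 15 min, −3.55, moved to −2.87 without EDRE replicate 2 and to −1.89 with normexp, and the call held in both.

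Dppa4 lies next to Dppa2 on chromosome 16, and its protein binds that of Dppa2. The probe with the higher mean over all arrays read 4.31, 4.39 and 4.24 in ES cells, 4.12, 4.09 and 4.37 in ESRE and 4.70, 4.33 and 4.37 in ESRL. The same probe read −1.43, −1.50 and −1.74 in ED cells, −1.70, −0.41 and −1.04 in EDRE and −1.52, −1.89 and −1.84 in EDRL. The ES arrays stood close together and far above the ED arrays, and the probe stayed well above background on all 18 arrays; the spot on ES replicate 2 was an outlier and was left out. Dppa4 fell by 5.83 in unirradiated cells (56.7-fold lower, adjusted p = 7.41e-10). The difference was −5.25 at 15 min (adjusted p = 4.51e-10) and −6.21 at 4 h (adjusted p = 7.78e-11). A second Dppa4 probe read 4.29, 4.34 and 4.62 in ES cells against −1.54, −1.68 and −1.80 in ED cells. It gave −6.09 in unirradiated cells (adjusted p = 2.3e-11), −5.26 at 15 min and −6.19 at 4 h.

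Utf1 is bound to chromatin in pluripotent cells. Its levels were 5.93, 5.81 and 5.90 in ES cells, 6.11, 6.26 and 6.37 in ESRE and 5.81, 5.68 and 5.61 in ESRL. They were −5.35, −3.21 and −4.94 in ED cells, −4.54, −5.01 and −5.24 in EDRE and −4.38, −4.58 and −4.19 in EDRL. The ES arrays of each group lay close together, while ED replicate 2 stood above the other ED arrays; the probe was not well above background on EDRE replicates 2 and 3. Utf1 was 1331-fold lower in unirradiated ED cells (log2 −10.38, adjusted p = 1.52e-11). At 15 min, with 1 of 3 EDRE arrays well above background, it was at least 1950-fold lower (adjusted p = 4.82e-12). At 4 h the difference was −10.08 (adjusted p = 1.27e-11). Without ED replicate 2 the unirradiated value was −11.03.

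Dppa3, also called Stella, guards DNA methylation in the egg and early embryo and acts on Uhrf1 and Dnmt1. It read 2.60, 2.73 and 2.83 in ES cells, 3.14, 2.94 and 2.74 in ESRE and 3.88, 3.19 and 2.79 in ESRL. In ED cells the probe read −8.78, −9.61 and −8.88, in EDRE −8.97, −6.59 and −7.37, and in EDRL −9.95, −9.39 and −9.73. It was bright on all 9 ES arrays and not well above background on any of the 9 ED arrays, so that only a bound can be given for the fold. For the bound, the mean of the bright group over its 3 arrays, outlier spots kept, was set against the mean of the dim group. Each array of the dim group entered with the higher of the lowest signal well above background on that array and the probe's own. Bounds for groups with some dim arrays were made in the same way. Dppa3 was at least 1142-fold lower in unirradiated ED cells (adjusted p = 2.07e-11). At 15 min it was at least 511-fold lower (adjusted p = 4.38e-11) and at 4 h at least 1730-fold lower (adjusted p = 5.07e-12). The lowest detectable levels behind the 15 min bound were −8.39, −4.27 and −5.52 on EDRE replicates 1, 2 and 3. By construction this bound, and that of Alpl at 15 min, would be lower without replicate 1.

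Dppa5a binds RNA through a KH domain. Its levels were 7.88, 8.09 and 8.08 in ES cells, 8.03, 8.09 and 8.24 in ESRE and 7.86, 7.78 and 7.81 in ESRL. They were −5.66, −5.12 and −4.61 in ED cells, −3.84, −5.62 and −4.88 in EDRE and −4.67, −4.42 and −4.64 in EDRL. The ES arrays lay within a narrow band, and the spot was saturated on ESRE replicate 3 and ESRL replicate 2. Signal remained well above background on 7 of the 9 ED arrays, the exceptions being EDRE replicates 2 and 3. Dppa5a had the largest measured difference of the 10 genes in unirradiated cells, 9051-fold lower in ED (log2 −13.14, adjusted p = 5.13e-13). At 15 min, with 1 of 3 EDRE arrays well above background and 1 of 3 ESRE spots saturated, it was at least 5594-fold lower (adjusted p = 2.65e-13). At 4 h, with 1 of 3 ESRL spots saturated, it was at least 5374-fold lower (adjusted p = 5.29e-13).

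Lin28a binds RNA and blocks the maturation of let-7 microRNAs. It read 3.93, 3.90 and 3.69 in ES cells, 3.85, 3.87 and 4.05 in ESRE and 4.21, 3.63 and 3.58 in ESRL. The ED levels were −0.58, −0.11 and −0.20, those of EDRE −0.46, −1.99 and −1.23, and those of EDRL 0.50, 0.08 and 0.28. The gene stayed well above background on all 18 arrays, and its lowest signals were on EDRE replicates 2 and 3; the spot on EDRL replicate 1 was an outlier and was left out. Lin28a was 17.6-fold lower in unirradiated ED cells (log2 −4.13, adjusted p = 4.94e-08). It was 35.5-fold lower at 15 min (log2 −5.15, adjusted p = 3.35e-09) and 12.3-fold lower at 4 h (log2 −3.63, adjusted p = 4.63e-07).

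Promoters of 4 of the 10 genes (Utf1, Fut4, Lin28a and Alpl) matched the reference table, in 5 windows of 250 bases upstream of a start. Lin28a is shown because it alone held any of the 3 motifs searched on both strands in those windows: the octamer ATGCAAAT, the Sox motif ACAATG and the E-box CACGTG. The Lin28a window is chr4:134018817-134019066 of GRCm38.p6, minus strand, from RefSeq, written 5′ to 3′. Capitals mark CATTGT, the Sox motif on the other strand, 96 to 91 bases upstream of the start. Of all 32851 promoters of the same length, 10.69% held the Sox motif, 1.60% the octamer and 6.02% the E-box. There was 1 match in the 5 windows, so that no matches overlapped, and a match is a description of the sequence only.
Lin28a promoter: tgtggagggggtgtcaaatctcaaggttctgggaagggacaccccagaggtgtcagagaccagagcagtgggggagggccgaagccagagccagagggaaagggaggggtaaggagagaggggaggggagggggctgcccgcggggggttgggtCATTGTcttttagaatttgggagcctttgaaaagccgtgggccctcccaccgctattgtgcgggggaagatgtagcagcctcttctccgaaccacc

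Gdf3 is a ligand of the TGF-beta family. It read −1.37, −1.07 and −1.37 in ES cells, −1.20, −1.25 and −1.29 in ESRE and −1.29, −1.33 and −1.15 in ESRL. In ED cells it read −6.14, −6.28 and −6.10, in EDRE −6.37, −6.59 and −7.36, and in EDRL −6.72, −6.94 and −6.65. The replicates of ES and of ED cells were close together, and the EDRL arrays all lay below the ED ones; on EDRE replicates 2 and 3 the probe was not well above background. Gdf3 fell by 4.90 in unirradiated cells (30.0-fold lower, adjusted p = 5.21e-11). At 15 min, with 1 of 3 EDRE arrays well above background, it was at least 17.6-fold lower (adjusted p = 1.01e-11). At 4 h the value was −5.51 (adjusted p = 9.79e-12). With normexp the fitted value at 15 min moved from −5.52 to −2.58 (adjusted p = 0.000159).

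Fbxo15 is an F-box protein, which joins target proteins to ubiquitin ligases built on Skp1 and Cul1. Its levels were 5.44, 5.33 and 5.48 in ES cells, 5.67, 5.55 and 5.47 in ESRE and 5.47, 5.41 and 5.16 in ESRL. They were −6.06, −6.11 and −5.68 in ED cells, −4.30, −6.59 and −7.28 in EDRE and −5.96, −5.99 and −5.23 in EDRL. EDRE replicate 1 was the highest ED array, while the probe was not well above background on EDRE replicates 2 and 3; the spot on ES replicate 2 was an outlier and was left out. Fbxo15 was 2722-fold lower in unirradiated ED cells (log2 −11.41, adjusted p = 1.24e-09). At 15 min, with 1 of 3 EDRE arrays well above background, it was at least 1225-fold lower (adjusted p = 2.33e-10). The fitted value there, −11.62, moved to −12.50 without EDRE replicate 1. At 4 h the difference was −11.08 (2159-fold, adjusted p = 3.58e-10).

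Fut4 adds fucose to the sugar chains that carry SSEA1. It read −2.28, −2.50 and −2.32 in ES cells, −2.27, −2.59 and −2.58 in ESRE and −2.55, −2.15 and −1.88 in ESRL. In ED cells it read −4.30, −4.56 and −4.82, in EDRE −4.70, −3.90 and −3.44, and in EDRL −4.07, −4.15 and −3.90. The probe was well above background on all 18 arrays, and the gap between the cell types was the narrowest of the 10 genes. Fut4 was 4.57-fold lower in unirradiated ED cells (log2 −2.19, adjusted p = 5.89e-06) and 3.60-fold lower at 4 h (log2 −1.85, adjusted p = 2.51e-05). At 15 min the difference was −1.53 (2.89-fold lower, adjusted p = 0.000156). That call ended under 4 other settings: −0.82 with array-median scaling and with the deposited log2 table, −0.98 with quantile normalization and −0.56 with normexp. With EDRE replicate 1 as the only EDRE array it was −2.23 (adjusted p = 1.44e-05).

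Alpl is the tissue-nonspecific alkaline phosphatase, whose activity is stained to show stem cell colonies. It read −0.89, −1.02 and −0.69 in ES cells, 1.69, 1.74 and 1.55 in ESRE and 0.05, 0.75 and 1.18 in ESRL. The spots on ESRE replicates 1 and 3 and on ESRL replicates 2 and 3 were outliers and were left out. ED cells gave −10.01, −9.40 and −9.36, EDRE cells −10.12, −6.59 and −7.38, and EDRL cells −9.87, −9.35 and −9.62. All 9 ES arrays were well above background and none of the 9 ED arrays was. The ESRE and ESRL groups each had 1 usable array, which the fit assumes to vary like the other groups. Alpl was at least 95.2-fold lower in unirradiated ED cells (adjusted p = 1.22e-06). It was at least 210-fold lower at 15 min (adjusted p = 6.66e-06) and at least 280-fold lower at 4 h (adjusted p = 6.94e-06). These bounds keep the outlier spots; with the usable spot alone the bound was 222-fold at 15 min and 184-fold at 4 h.

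Alpl also has 2 starts among the promoters, shown because they differ in CG pairs, which capitals mark. Start 1 held 20 CG pairs, and 82.1% of all promoters of that length held fewer. Start 2 held 4, and 37.8% held fewer; the median of all promoters was 6, and 92.1% held at least 1. The windows of Utf1, Fut4 and Lin28a held 14, 16 and 7. The first Alpl window is chr4:137796385-137796634 and the second chr4:137766476-137766725, both GRCm38.p6, minus strand, from RefSeq, 5′ to 3′. Which start the cells used was not measured.
Alpl start 1: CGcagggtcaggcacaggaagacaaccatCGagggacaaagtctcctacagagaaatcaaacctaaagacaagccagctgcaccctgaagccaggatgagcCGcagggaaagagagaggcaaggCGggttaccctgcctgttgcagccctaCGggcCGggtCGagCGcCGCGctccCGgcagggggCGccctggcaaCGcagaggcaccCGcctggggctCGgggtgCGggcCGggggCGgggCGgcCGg
Alpl start 2: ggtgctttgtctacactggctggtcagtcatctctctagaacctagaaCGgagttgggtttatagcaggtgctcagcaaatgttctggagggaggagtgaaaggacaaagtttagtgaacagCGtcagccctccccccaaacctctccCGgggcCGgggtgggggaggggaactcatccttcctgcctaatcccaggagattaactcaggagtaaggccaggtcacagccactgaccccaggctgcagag

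**Figure D2:**
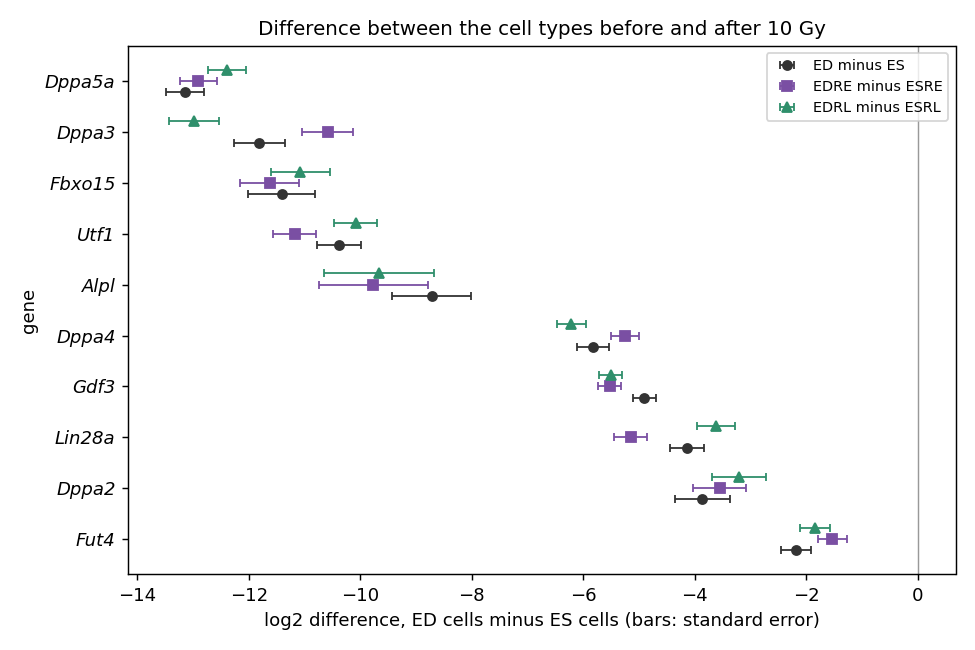
Difference between ED and ES cells (log2, horizontal axis) for each of the 10 genes without IR, 15 min after IR and 4 h after IR; each marker is the fitted value of 1 comparison and bars are its standard error. Every value lies below 0, from −1.53 for Fut4 at 15 min to −13.14 for Dppa5a without IR, with genes at background on some or all ED arrays drawn at their fitted values.

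In ES cells 15 min after IR, most of the 10 genes stood where they had stood before. Alpl was higher on all 3 ESRE arrays than on any ES array, by its outlier spots as well as by its usable one. Utf1 was a little higher on each ESRE array, and Dppa2 was lower on each. None of the 10 genes passed the test.

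By limma 0 of 10 genes were called at 15 min, where 0.463% of all 27875 probes tested were. At unadjusted p under 0.05 there was 1, Alpl, where 2633 of all 27875 probes were. The methods' t-test called 0 of the 9 genes it could test, before and after adjustment. ESRE and ES arrays did not overlap for 3 of 10 genes (Dppa2, Utf1 and Alpl) and for 36% of all probes. The median difference of the 10 genes was 0.10, against −0.08 for all probes. Alpl gave 2.60 (SE 0.99, 6.07-fold higher, adjusted p = 0.401), with 1 usable ESRE array. With its outlier spots kept, Alpl gave 2.52 (SE 0.61, adjusted p = 0.105). Alpl was called with quantile normalization (2.75, adjusted p = 0.00981), with the deposited log2 table (2.61, adjusted p = 0.0129) and with only the compared groups in the fit (2.60, adjusted p = 0.0179). With slide as a random block it was 2.60 (SE 1.34, adjusted p = 1.00).

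Dppa2 gave −0.66 at 15 min (SE 0.48, adjusted p = 0.802) and Utf1 0.37 (SE 0.39, adjusted p = 0.917). Dppa5a gave 0.10, which is not an exact difference, because its spot on ESRE replicate 3 was saturated. The value was 0.22 for Dppa3 and −0.11 for Fut4. It was −0.08 for Dppa4, 0.09 for Lin28a, 0.10 for Fbxo15 and 0.02 for Gdf3.

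In ES cells 4 h after IR, Dppa2 lay lowest on the ESRL arrays, below all ES arrays. Alpl was again higher on all 3 irradiated arrays, though by less than at 15 min. The other 8 genes showed no clear shift. None of the 10 genes passed the test here either. The 2 comparisons of irradiated ES cells share the ES arrays, and these are also the controls of the unirradiated comparison of cell type.

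By limma 0 of 10 genes were called at 4 h, where 7.03% of all 27966 probes tested were. At unadjusted p under 0.05 there was 1, Dppa2, where 6985 of all 27966 probes were. The methods' t-test called 0 of 9 genes after adjustment and 1 of 9, Dppa2, before it. The share of all probes called by the t-test is not given here. ESRL and ES arrays did not overlap for 3 of 10 genes (Dppa2, Dppa5a and Alpl) and for 33.4% of all probes. For Dppa5a this cannot be relied on, because the spot on ESRL replicate 2 was saturated. The median difference of the 10 genes was −0.01, against −0.16 for all probes. Dppa2 gave −1.22 (SE 0.48, 2.32-fold lower, adjusted p = 0.134), and −0.98 without ESRL replicate 1 (adjusted p = 0.378). Alpl gave 0.92 (SE 0.99, adjusted p = 0.632) from 1 usable ESRL array, replicate 1. It was called with the deposited log2 table (1.84, adjusted p = 0.0198) and not with its outlier spots kept (1.53, adjusted p = 0.15). Dppa3 gave 0.57 (SE 0.46, adjusted p = 0.487) and Dppa5a −0.20 (adjusted p = 0.778). The value was 0.19 for Dppa4, −0.18 for Utf1 and 0.17 for Fut4. It was −0.03 for Lin28a, −0.11 for Fbxo15 and 0.01 for Gdf3.

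Between the 2 times after IR, 5 of the 10 genes were lower on every ESRL array than on any ESRE array. They were Dppa2, Dppa5a, Utf1, Fbxo15 and Alpl. For Dppa5a this cannot be relied on, because its spot was saturated on 1 array of each group. For Fbxo15 the groups were apart by less than the rounding of the values printed here. None of the 10 genes passed the test.

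By limma 0 of 10 genes were called between ESRL and ESRE, where 4.8% of all 24935 probes were. At unadjusted p under 0.05 there were 0, where 5300 of all 24935 probes were. The methods' t-test called 0 of 9 before and after adjustment. The arrays did not overlap for 5 of 10 genes and for 26.7% of all probes, and the median difference was −0.17 against −0.06 for all probes. Alpl gave −1.68 (SE 1.20, adjusted p = 0.481), Utf1 −0.54 (adjusted p = 0.465) and Dppa2 −0.56 (adjusted p = 0.57). Dppa5a gave −0.30, which is not an exact difference because of its saturated spots. Fbxo15 gave −0.22, Dppa3 0.35, Fut4 0.29, Dppa4 0.27, Lin28a −0.12 and Gdf3 −0.01. On the slide that held ESRE replicates 1 and 2 with ESRL replicates 2 and 3, Utf1 differed by −0.54 at 4 h. Alpl differed by −0.74 there, with its outlier spots kept. With slide as a fixed block, 0 of the 9 genes tested were called, where 586 of all 24441 probes were.

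**Figure D3:**
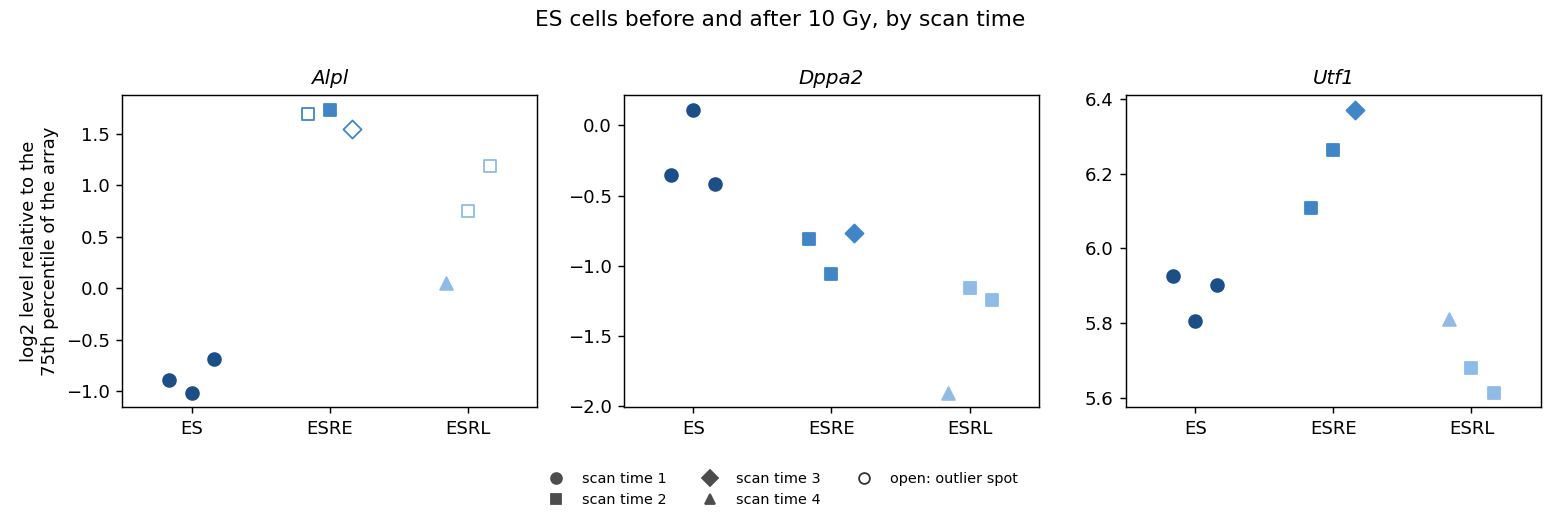
Levels of Alpl, Dppa2 and Utf1 (log2 relative to the array's 75th percentile, vertical axis) in ES, ESRE and ESRL cells; each point is 1 array, marker shape shows the scan time and open points are outlier spots. Alpl lies at −1.02 to −0.69 on the ES arrays and at 1.55 to 1.74 on the ESRE arrays, which were scanned at other times.

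In ED cells 15 min after IR, only Dppa4, Fut4 and Lin28a were well above background on all 3 EDRE arrays. Lin28a was clearly lower on EDRE replicates 2 and 3, the arrays that stood apart, and within the range of the ED arrays on replicate 1. The second Dppa4 probe was higher on all 3 EDRE arrays. None of the genes passed the test, and Dppa3 and Alpl were at background in both groups and were not tested.

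By limma 0 of 8 genes were called between EDRE and ED, where 4.85% of all 24490 probes were. At unadjusted p under 0.05 there were 2, Lin28a and Gdf3, where 6375 of all 24490 probes were. The methods' t-test called 0 of 8 before and after adjustment. The arrays did not overlap for 1 of 8 genes, Gdf3, and for 24% of all probes. Gdf3 was not well above background on EDRE replicates 2 and 3, whose lowest detectable levels, −4.27 and −5.52, lay above its ED levels, so that these arrays could not show a lower level. The median difference was −0.23, against 0.03 for all probes. Lin28a gave −0.93 (SE 0.30, adjusted p = 0.0716), and −1.32 without EDRE replicate 1 (adjusted p = 0.00107). The fitted value of Gdf3, −0.60 (adjusted p = 0.0808), is therefore not a measured difference, and it turned to 1.26 with normexp. The second Dppa4 probe gave 0.72 (adjusted p = 0.0688) and the first one 0.50 (adjusted p = 0.239). Fut4 gave 0.55 (adjusted p = 0.209). Values fitted partly to arrays not well above background were 0.35 for Dppa5a, −0.43 for Utf1, −0.35 for Dppa2 and −0.10 for Fbxo15. With EDRE replicate 1 alone, Fbxo15 gave 1.65 and Dppa5a 1.29, with the spread taken from the other groups.

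In ED cells 4 h after IR, Gdf3 was below all ED arrays, and Lin28a and Fut4 lay above them. These 3 genes were the only ones of the 8 tested without overlap. Dppa3 and Alpl stayed at background and were not tested. No gene passed the test. EDRE and EDRL were compared with the same ED arrays, which also enter the unirradiated comparison of cell type.

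By limma 0 of 8 genes were called between EDRL and ED, where 1.61% of all 25412 probes were. At unadjusted p under 0.05 there was 1, Gdf3, where 3543 of all 25412 probes were. The methods' t-test called 0 of 8 before and after adjustment. The arrays did not overlap for 3 of 8 genes and for 43.6% of all probes. The median difference was 0.17, against −0.09 for all probes. Gdf3 gave −0.59 (SE 0.20, adjusted p = 0.175), Fut4 0.52 (adjusted p = 0.416) and Lin28a 0.48 (adjusted p = 0.602). Dppa2 gave −0.56, Dppa5a 0.55, Fbxo15 0.22, Dppa4 −0.20 and Utf1 0.12.

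Between the 2 times in ED cells, Lin28a was higher on all 3 EDRL arrays than on any EDRE array. It was the only 1 of the 8 genes tested that passed. The second Dppa4 probe was lower on all 3 EDRL arrays, by less than the limit for a call. The call for Lin28a rested on EDRE replicates 2 and 3, and it also ended without EDRL replicate 2 or 3.

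By limma 1 of 8 genes was called between EDRL and EDRE, where 7.42% of all 24167 probes were. The arrays did not overlap for 1 of 8 genes and for 31.5% of all probes, and the median difference was 0.10 against −0.10 for all probes. The methods' t-test called 0 of 8 before and after adjustment. Lin28a gave 1.41 (SE 0.34, 2.65-fold higher, adjusted p = 0.0216). With EDRE replicate 1 as the only EDRE array it gave 0.64 (adjusted p = 0.348), and with EDRE replicates 2 and 3 alone 1.79 (adjusted p = 0.000205). With slide as a random block it was 0.75 (adjusted p = 0.166), and on the slide that EDRE replicate 1 shared with EDRL it was 0.74, with its outlier spot kept. Slide as a fixed block gave 0.64 for Lin28a and −1.43 for Fbxo15, from 1 EDRE array whose spread is taken from the other groups. The second Dppa4 probe gave −0.88 (adjusted p = 0.0296) and the first one −0.70 (adjusted p = 0.0901). Fut4 gave −0.03. With EDRE arrays not well above background in the fit, Utf1 gave 0.55, Fbxo15 0.33, Dppa5a 0.21, Dppa2 −0.21 and Gdf3 0.00.

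**Figure D4:**
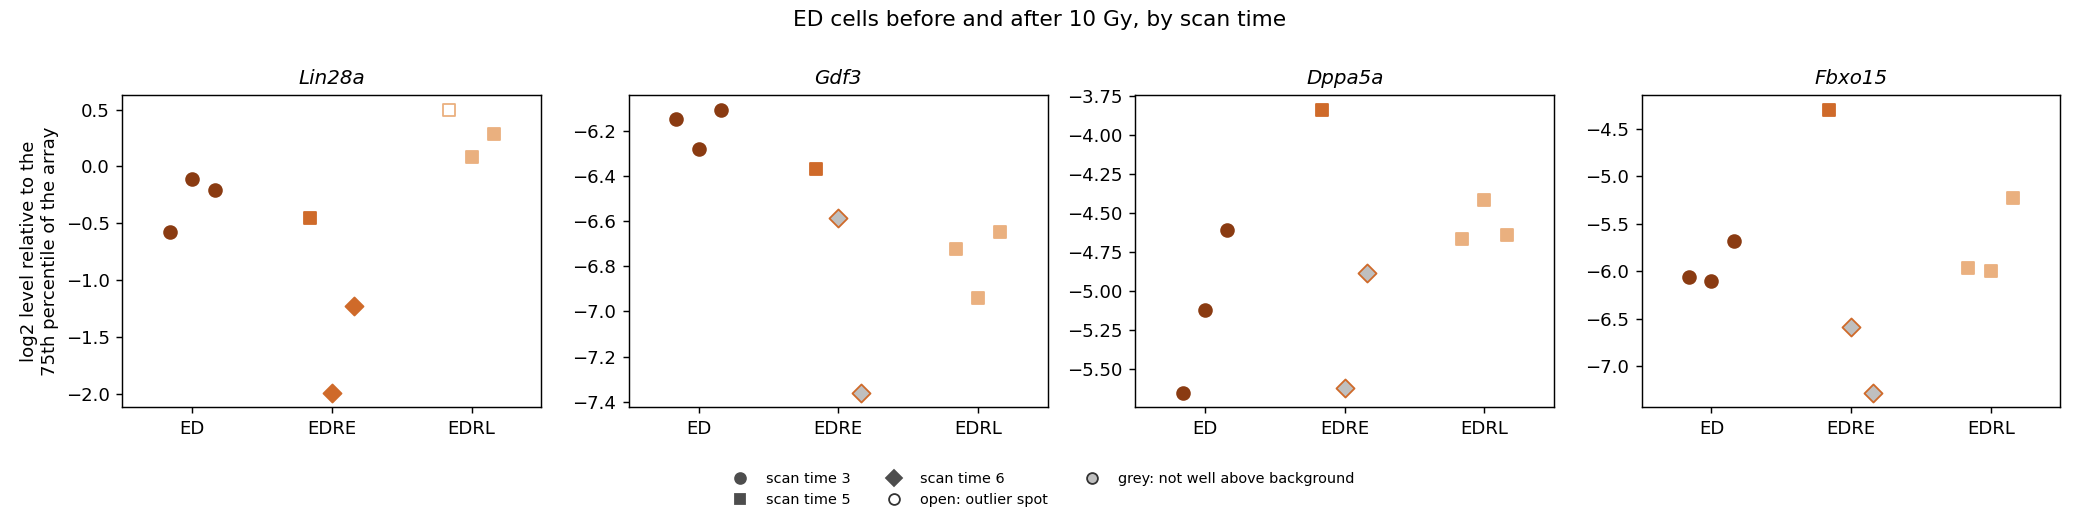
Levels of Lin28a, Gdf3, Dppa5a and Fbxo15 (log2 relative to the array's 75th percentile, vertical axis) in ED, EDRE and EDRL cells; each point is 1 array, marker shape shows the scan time, open points are outlier spots and signals not well above background are marked. EDRE replicates 2 and 3, scanned together, hold the lowest Lin28a levels, −1.99 and −1.23.

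No difference between the cell types in the effect of IR was called for any of the 10 genes. Only 3 of them, Dppa4, Fut4 and Lin28a, were well above background on all 3 EDRE arrays. At 15 min 0 of 10 were called by limma (1.98% of all 28098 probes). There was 1 at unadjusted p under 0.05, Lin28a at 1.02, where 5252 of all 28098 probes were. The second Dppa4 probe was also under that limit there, at −0.83 (adjusted p = 0.202). At 4 h 0 of 10 were called by limma (1.07% of all 28375 probes). There were 0 at unadjusted p under 0.05, where 4305 of all 28375 probes were. The t-test of the methods was not run on an interaction. The medians of the 10 genes were −0.02 and −0.31, against −0.22 and −0.15 for all probes. Dppa3 and Alpl were at background in all 3 ED groups, so that their fitted interactions are not measured differences, and they enter these counts and medians. Of the 3 genes well above background on all 18 arrays, Lin28a gave the largest value at 15 min (adjusted p = 0.226), and Fut4 gave −0.66.

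Summed over the 10 genes, the level relative to the 75th percentile was 383 to 415 in ES cells, 426 to 476 in ESRE and 353 to 393 in ESRL. It was 1.27 to 1.55 in ED cells, 1.17 to 1.32 in EDRE and 1.53 to 1.99 in EDRL. The sum weighs bright probes most. Dppa5a was the brightest in ES, ESRE and ESRL cells, and it was saturated on ESRE replicate 3, which gave the 476, and on ESRL replicate 2. The sums of those arrays are therefore not exact. On the ED and EDRL arrays 8 of the 10 genes were well above background, and on the EDRE arrays 3 to 8.

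Of 26 genes related to the 10 or working with them 23 were tested between ED and ES; 11 were called lower and 2 higher (26.6% and 15.1% of all probes), with a median of −0.89. The Gdf3 relatives Nodal and Lefty1, of the same ligand family, fell to background, Nodal by at least 2739-fold and Lefty1 by at least 1747-fold. The Dppa5a relative Khdc3 fell too (−10.44, adjusted p = 3.33e-11), as did Ooep, which was well above background on 1 of 3 ED arrays (adjusted p = 6.34e-08). Beside Alpl, the phosphatase gene Alppl2 fell (−5.19, adjusted p = 3.61e-08). Of the fucosyltransferases related to Fut4, Fut10 (2.41, adjusted p = 3.97e-06) and Fut11 (2.79, adjusted p = 1.87e-08) rose. Fut9, which also makes SSEA1, was at least 63.7-fold lower (adjusted p = 3.12e-06), with 1 usable ES array whose spread is taken from the other groups. The partners of Dppa3 and Fbxo15 were not called: Uhrf1 gave −0.89, Dnmt1 0.01, Cul1 0.16 and Skp1 0.66, the last with 1 usable ES array.

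In the axis of Lin28a and let-7, 15 of 18 genes were tested; 8 were called lower and 2 higher (26.6% and 15.1% of all probes), with a median of −1.25. Lin28b, the paralog of Lin28a, fell by 4.32 (adjusted p = 1.75e-11). Trim71, a let-7 target that is high in stem cells, fell to background, by at least 68.6-fold (adjusted p = 1.65e-09). Hmga2, another let-7 target, rose by 4.63 (adjusted p = 5.75e-10). The microRNA processing gene Drosha fell (−1.25), while Dicer1 (−0.79) and Dgcr8 (−0.35) were not called. Levels of let-7 itself were not measured.

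Genes of other kinds of cell were counted in the same way between ED and ES, where 26.6% of all probes were called lower and 15.1% higher. Of the 15 pluripotency factors 13 were tested. Of these 12 were called lower and 0 higher, with a median of −7.62. The list holds Pou5f1 (Oct4), Sox2 and Nanog, whose loss was part of how the ED cells were defined. Lower levels of these genes are therefore not a separate result. Of 20 other ES cell markers 17 were tested, with 15 lower and 1 higher, Spp1 (2.28); the median was −8.83. Genes of primed pluripotency gave 5 lower and 1 higher of 7 (median −6.73, or −6.42 with bounds). Genes of the primitive streak and mesoderm gave 5 lower and 0 higher of 6 (median −4.32, or −2.996 with bounds). Endoderm genes gave 4 lower and 1 higher of 6 (median −2.66, or −2.19 with bounds), and neural genes 2 lower and 1 higher of 7 (median 0.18), close to the shares of all probes. Trophoblast genes gave 7 lower and 0 higher of 7 (median −6.72), and germ cell genes 4 lower and 0 higher of 5 (median −8.00). Blood genes gave 2 lower and 1 higher of 4 (median −1.16, or −0.93 with bounds), and Ptprc was not above background on any ES or ED array.

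Of 13 mesenchyme and fibroblast genes 12 were tested; 10 were called higher in ED and 2 lower, where 15.1% of all probes were called higher and 26.6% lower. The median was 3.86. Their summed level was 77.8, 73.4 and 64.4 in ES cells and 512, 574 and 644 in ED cells. It was 63.8, 69.7 and 68.8 in ESRE, 55.6, 70.6 and 71.8 in ESRL, 631, 554 and 576 in EDRE and 500, 587 and 609 in EDRL. The brightest signal of the list was that of Fn1 in ES cells and that of Vim in ED cells, which does not measure abundance, and Thy1 was not above background in ED cells. Whether the lower levels of the 10 genes went with a share of mesenchymal cells was not tested.

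After IR 0 of 117 tested genes of these lists were called by limma in ESRE against ES, and 0 of 93 in EDRL against ED. In ESRL against ES 7 of 119 were called, all lower, where 7.03% of all probes were called and 6.34% were lower. They were Arid3a (−1.13), Gata4 (−1.07), Sox17 (−1.18) and Pdgfra (−1.40), and Alpi, Acvr1b and Ago2, which were not well above background on all 3 ESRL arrays. In EDRE against ED 9 of 90 were called, where 4.85% of all probes were (2.10% higher and 2.74% lower): Drosha (1.15), Spp1 (1.04) and Dab2 (1.16) higher, and 6 lower. The 6 were Dusp6 (−1.07, with 1 usable EDRE array) and Pou5f1, Sox17, Tfap2c, Mael and Stra8, which were not well above background on all 3 EDRE arrays. A random block for slide left 0 of these genes called. With array-median scaling 2.12% of all probes were called higher and 3.7% lower in ESRL against ES, where the main scaling gave 0.69% and 6.34%. In EDRE against ED array-median scaling gave 5.9% higher and 2.18% lower. With normexp 32 of 27966 probes were called higher and 47 lower in ESRL against ES. In EDRE against ED normexp called 2717 of 24490 higher and 130 lower.

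**Figure D5:**
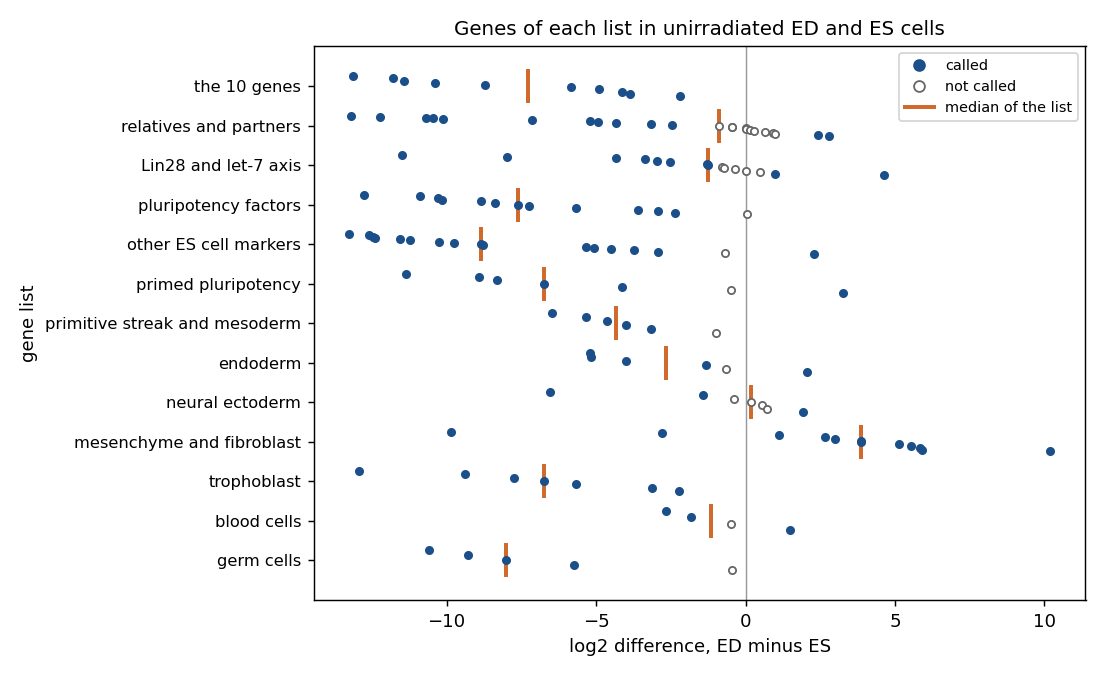
Difference between ED and ES cells (log2, horizontal axis) for the tested genes of each list; each point is 1 gene, blue where called and open where not, and the orange line is the median of the list. The 10 genes have a median of −7.27 and the mesenchyme and fibroblast genes a median of 3.86.

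Genes beside the 10 on the chromosomes of GRCm38.p6, 2 on each side, were looked at after their values were seen. Of 32 such neighbours 23 were tested between ED and ES; 11 were called lower, 2 higher and 10 were not called, where 26.6% of all probes were called lower and 15.1% higher. Gdf3 and Dppa3 lie next to each other on chromosome 6, followed by Nanog and Slc2a3 (−11.56). Dppa4 and Dppa2 lie together on chromosome 16, and Morc1 beside them was called lower too. Utf1 lies between Kndc1 and Spef1l, which were both called lower. Dppa5a lies between Ooep and Gsta2, which was not called (−0.77). Near Fbxo15, Cyb5a (0.59) and Neto1 (0.39) were not called between ED and ES either. Near Fut4, Amotl1 (1.22) and 1700012B09Rik (1.06) were higher, against the direction of Fut4. After IR 1 of 21 neighbours was called in ESRE against ES (0.463% of all probes), Rap1gap beside Alpl (1.60, adjusted p = 0.0292). In ESRL against ES 2 of 20 were called (7.03% of all probes): Rap1gap (1.60, adjusted p = 0.00604) and Neto1 near Fbxo15, lower and well above background on 1 of 3 ESRL arrays (adjusted p = 0.0414). In EDRE against ED 0 of 17 were called, and in EDRL against ED 2 of 18 (1.61% of all probes): Apobec1 beside Gdf3 (1.22) and Spef1l beside Utf1 (1.11). A random block for slide left none of these calls (adjusted p = 1.00 for each). With that block Rap1gap still gave 1.35 (SE 0.57) in ESRE and 1.60 (SE 0.57) in ESRL against ES. Whether the values of the neighbours go with those of the 10 genes was not tested.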

How the data were processed

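Total RNA of 18 samples (6 groups of 3) was labelled with Cy3, and each sample was read on 1 one-colour Agilent array. As the authors deposited them, the spot values are intensity values (processed signals, background-subtracted) from Feature Extraction, which is version 10.7.3.1 per the file headers and 9.1 in the submitters' notes. The authors also deposited a table of log2 values, which was used only as an alternative. Groups, dose and times were taken from the labels, and slides were inferred from scan times, although the methods name slides with 1 array.

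Each array had 39448 spots; without 1417 controls and 200 negative controls, 37246 probes were kept. Outlier spots were left out. Genes were named from RefSeq, and a gene with several probes is shown by the probe with the highest mean over the 18 arrays. Each value is a log2 signal minus the log2 of its array's 75th percentile. Tests took the probes well above background on every array of 1 or more of the compared groups; 49.8% to 86.3% of the probes were on an array. The groups were fitted together on all arrays by limma 3.58.1 in R 4.3.3, with the package data.table in version 1.17.8, with moderated variances and Benjamini-Hochberg adjustment over all probes tested. Each comparison was two-sided, and an interaction is the change after IR in ES cells minus that in ED cells. The script was tested on simulated data.

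The 10 genes and the lists were chosen with earlier results of these data known. Named are the 10 genes, genes of the lists of relatives and partners and of the Lin28a and let-7 axis, and, of the other lists, the 3 largest called rises and falls between ED and ES at most, the genes called against unirradiated cells after IR, and brightest or undetected genes of the mesenchyme and blood lists. The lists cover relatives and partners, the Lin28a axis, pluripotency factors, other ES cell markers, primed pluripotency, primitive streak, endoderm, neural ectoderm, mesenchyme and fibroblast, trophoblast, blood and germ cells. Neighbours were chosen after their values were seen. Correlations of levels across arrays are not given, because the arrays fall into 2 clusters by cell type. The alternatives were other scalings and filters, normexp (run on the median signal), outlier spots kept, slide or replicate blocks, fits of the compared groups only, the two-sided t-test of the methods, the deposited log2 table and each array left out in turn. The fit with EDRE replicate 1 alone was added after the data were seen.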

Additional observations from a re-analysis of the deposited data

How the results depend on the processing

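Between cell types, 383 of 388 fits kept the call of the gene concerned and none reversed it. The fits include a setting with no limit on the size of the difference, which by construction could not end a call. The 5 that ended a call were Dppa2 in unirradiated cells with slide as a random block, and Fut4 at 15 min under 4 settings: −0.82 with array-median scaling, −0.98 with quantile normalization, −0.56 with normexp and −0.82 with the deposited log2 table. Leaving out an array kept the call in 178 of 178 fits. Normexp moved some fitted log2 differences by more than 1.5 times. Alpl moved to −4.90, −5.73 and −5.44 in the 3 comparisons of cell type. At 15 min Dppa2 moved to −1.89, Gdf3 to −2.58 and Dppa3 to −7.04. The values of Alpl and Dppa3 are not measured differences, since both were at background in ED cells. Smaller log2 moves also changed folds by more than 1.5 times. Under the settings other than leaving out an array, Gdf3 ranged from −4.90 to −3.77 in unirradiated cells. It ranged from −5.75 to −3.81 at 4 h, and Fbxo15 from −11.41 to −10.38 in unirradiated cells. Between EDRE and ESRE 3 genes were called where probes had to be well above background in all groups compared, because only 3 were then tested, by construction.

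For ESRE against ES the count was 1 (Alpl, higher) with quantile normalization, with only the compared groups and with the deposited log2 table. For ESRL against ES it was 1 with the deposited log2 table (Alpl, higher) and 1 with the t-test before adjustment (Dppa2, lower). For EDRE against ED it was 1 with quantile normalization (Gdf3, lower) and 3 with normexp (Dppa5a 1.50, Fut4 1.07 and Fbxo15 1.56, all higher). With EDRE replicate 1 alone, a fit added after the data were seen, Dppa5a gave 1.29 and Fbxo15 1.65. The shares of all probes called under the settings of this section are not given here. Leaving out an array gave 0 to 1, with 1 without EDRE replicate 1 (Lin28a, −1.32). Fbxo15 thus turned direction with normexp and with EDRE replicate 1 alone; the cause was not tested.

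For EDRL against EDRE the count was 4 with normexp (Lin28a 1.06 higher; Dppa2 −1.19, Dppa5a −1.05 and Fbxo15 −1.29 lower) and 2 without the filter on dim probes (Lin28a, and Dppa3 at −2.05). No gene (0) was called with a random block for slide, with only the compared groups and with the t-test before and after adjustment. With slide as a fixed block and with EDRE replicate 1 alone Fbxo15 gave −1.43 and −1.43, and Lin28a was called in neither. Both fits rest on 1 EDRE array. Leaving out an array gave 0 to 3: 0 without EDRE replicate 2 or 3 or EDRL replicate 2 or 3, and 3 without EDRE replicate 1 (Lin28a 1.79, Fbxo15 1.20, Dppa4 −1.02). Dppa5a and Fbxo15 turned direction here; the cause was not tested. For the interaction at 15 min Alpl gave 3.14 with EDRE replicate 1 alone. Leaving out an array gave 0 to 4 genes called, with 4 without EDRE replicate 1 (Dppa3 −1.88, Fut4 −1.01, Lin28a 1.40, Fbxo15 1.09). On EDRE replicates 2 and 3 only Dppa4, Fut4, Lin28a and, on replicate 3, Dppa2 were well above background, and Alpl and Dppa3 were at background in all ED groups; values that rest on arrays at background are not measured differences.

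Samples share only a number across groups. Deviations of ED and ES samples with the same number correlated at −0.10, 0.22 and 0.30. In the other comparisons of 2 groups the values ran from −0.37 to 0.11. Samples with different numbers were not set beside them, so these values do not settle whether the numbers pair the samples. With the number as a replicate block the counts were 10, 10 and 10 between cell types, 1 for EDRL against EDRE (Lin28a 1.50, adjusted p = 0.0249) and 0 elsewhere, and it changed no call of the 10 genes.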
